A study of Homo sapiens with 30 samples.

Results

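RNA of HEK293FT, an established human embryonic kidney cell line, was recovered by proximity labelling aimed at the nuclear lamina. This was done in 2 ways, from cells fixed with paraformaldehyde (PFA) and from native cells. These 4 libraries, 2 per preparation, are compared here gene by gene. They were chosen by their labels alone, as 4 of 30 samples in the series and 4 of 8 RNA libraries. The other 4 RNA libraries, 2 of a nuclear and 2 of a cytosolic fraction, serve as reference. All 8 came from asynchronous cells transfected with APEX2 fused to lamin B1 using Lipofectamine 2000, so the reference fractions carry the fusion as well. No promoter, clone or fixation time is given in the labels, and no library without the fusion or without labelling was used here. The labels number 2 replicates in each group without saying whether they were separate cultures, so every p-value measures only the spread between these libraries, which may be technical.

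APEX2 is a peroxidase that, given biotin-phenol and hydrogen peroxide, attaches biotin to molecules within a short distance, and a lamin B1 fusion places it in the protein mesh under the inner nuclear membrane. Formaldehyde crosslinks RNA to nearby proteins, so RNA that was not itself biotinylated can be recovered with a labelled protein, whereas a native preparation relies on contacts that survive lysis. Ribosomal RNA was depleted before library preparation, and the remaining RNA includes messenger RNAs, long non-coding RNAs and structural RNAs.

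The PFA libraries held 5859026 and 2321291 counts and the native libraries 8557777 and 5992656. The smallest library was PFA replicate 2, in which 3 counts equal 1.29 CPM, a count scaled to library size. Of 27630 genes in the table, 16504 had enough counts to be tested. Levels below are CPM after TMM normalisation, a scaling that corrects for differences in library composition, and are given for PFA replicates 1 and 2 and then native replicates 1 and 2. Because CPM is not divided by length, levels are compared between libraries for 1 gene and never between genes. All 8 markers of HEK293 cells had counts in each lamina library, with summed levels of 989.9 and 784 CPM in PFA and 1076 and 1345 in native. The globin genes HBG1, HBG2 and HBE1, markers of the K562 line also used in the series, had no count in any of the 8 libraries, and the whole list of 10 markers of that line summed to 27 and 21 counts in PFA and 64 and 41 in native. LMNB1, part of the transfected fusion, took 8.89% and 9.49% of counts in PFA and 8.601% and 2.96% in native, against at most 0.520% in a fraction. The transcript of the construct and the endogenous LMNB1 transcript cannot be told apart in these counts.

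The comparison asks whether fixation changes which RNAs are recovered with the lamin B1 fusion. No gene passed an adjusted p under 0.05 in either direction with edgeR's quasi-likelihood test in 1 fit of the 8 libraries, and the smallest adjusted p was 0.257. At an unadjusted p under 0.05, 897 genes were higher in PFA (5.44% of those tested) and 924 were lower (5.60%). Both PFA libraries lay above both native libraries for 3290 genes (19.9%) and below both for 3086 (18.7%). The Wald test of DESeq2 on the same 16504 genes called 73 higher (0.442%) and 150 lower (0.909%) at an adjusted p under 0.05. With PFA replicate 1 as the only PFA library, edgeR called 309 of 17240 genes higher (1.79%) and 433 lower (2.51%). That fit assumes that the lone library varies like the other groups. PFA replicate 2 gives no independent check of those genes, since it would be set against the same native libraries. Without PFA replicate 2 the unadjusted counts became 1852 and 2125, and without native replicate 2 they became 180 and 315. Scaling by total counts shifted the median log2 difference of all genes from 0.06 to -0.06 and gave 447 higher and 1108 lower at an unadjusted p under 0.05. Without the filter on low counts edgeR called 272 of 23649 genes (1.15%). Removing the 9 rows that took over 1% of a library, an alternative chosen after seeing the data, gave 705 and 1203.

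The genes with the smallest p higher in PFA were mostly short messenger RNAs, and those lower were mostly long ones. For each direction the 12 with the smallest p are given, leaving out rows under 300 exonic bases or on several chromosomes. COX6A1, a subunit of cytochrome c oxidase (hg19, chromosome 12, 120875893 to 120878545), had 60.2 and 58.1 CPM in PFA and 21.5 and 10.3 in native, a log2 difference of 1.88 (SE 0.34, edgeR adjusted p 0.257, DESeq2 adjusted p 5.20e-04). ATP5E, the epsilon subunit of ATP synthase (chromosome 20, 57603733 to 57607422), had 36.4 and 25.4 CPM in PFA and 10.6 and 5.75 in native. RPS29, a protein of the small ribosomal subunit (chromosome 14, 50043390 to 50053134), had 98.7 and 40.8 CPM in PFA and 18.4 and 17.1 in native. For each of these genes the lower PFA library was above the higher native one.

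RPS21, another small-subunit protein, had 97.8 and 53.7 CPM in PFA and 22.1 and 21.8 in native. POLR2L, a subunit shared by the nuclear RNA polymerases, had 32.9 and 28.7 CPM in PFA against 12.2 and 10.02 in native. ELOB, elongin B, had 69.3 and 48.6 against 24.95 and 17.4. The other 6 were FAM96B (iron-sulphur protein assembly), WDR83OS, SIVA1, DGUOK (mitochondrial deoxyguanosine kinase), TAPT1-AS1 and RPA3 (a subunit of replication protein A), with log2 differences of 1.45 to 1.66. Reads were counted without strand and for every gene they overlap, and the exons of ATP5E, WDR83OS, DGUOK and RPA3 overlap those of another gene, so part of their counts may belong to that gene. Among genes named below, the same holds for MALAT1, NEAT1, MRPS24, MRPS25, BANF1, TPR, ZFAS1, SLC2A1, SRSF5, EEF1A1, HSP90B1, SCARNA16 and KCNQ1OT1.

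On the other side, MKI67, which codes for the proliferation antigen Ki-67 that coats mitotic chromosomes (chromosome 10, 129894925 to 129924468), had 168 and 206 CPM in PFA and 489 and 837 in native, a log2 difference of -1.83 (SE 0.33, edgeR adjusted p 0.257, DESeq2 adjusted p 2.98e-06). IRS4, an insulin receptor substrate encoded by 1 exon (chromosome X, 107975727 to 107979607), had 291 and 225 in PFA against 955 and 846 in native. SPEN, a large transcriptional corepressor, had 247 and 284 against 639 and 919.6. The native libraries exceeded the PFA libraries 2-fold or more in each of these pairs.

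VCAN, the matrix proteoglycan versican, had 54.1 and 70.3 CPM in PFA and 159 and 259 in native. PNISR, an arginine- and serine-rich nuclear protein gene, had 75.02 and 80.2 against 187 and 324. INCENP, which anchors the chromosomal passenger complex, had 55.4 and 80.9 against 148 and 236. The remaining ones were KIAA0754, ROBO1 (an axon guidance receptor), PRDM16, LRP2 (the endocytic receptor megalin), SCARNA9 (a Cajal body RNA) and MIRLET7DHG, with log2 differences from -2.999 to -1.39. The exons of PNISR and SPEN overlap a gene on the other strand. The plot of these 24 genes by library shows no overlap between the preparations. The genes were picked by their p in this same comparison, so that separation is no independent support.

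**Figure D1:**
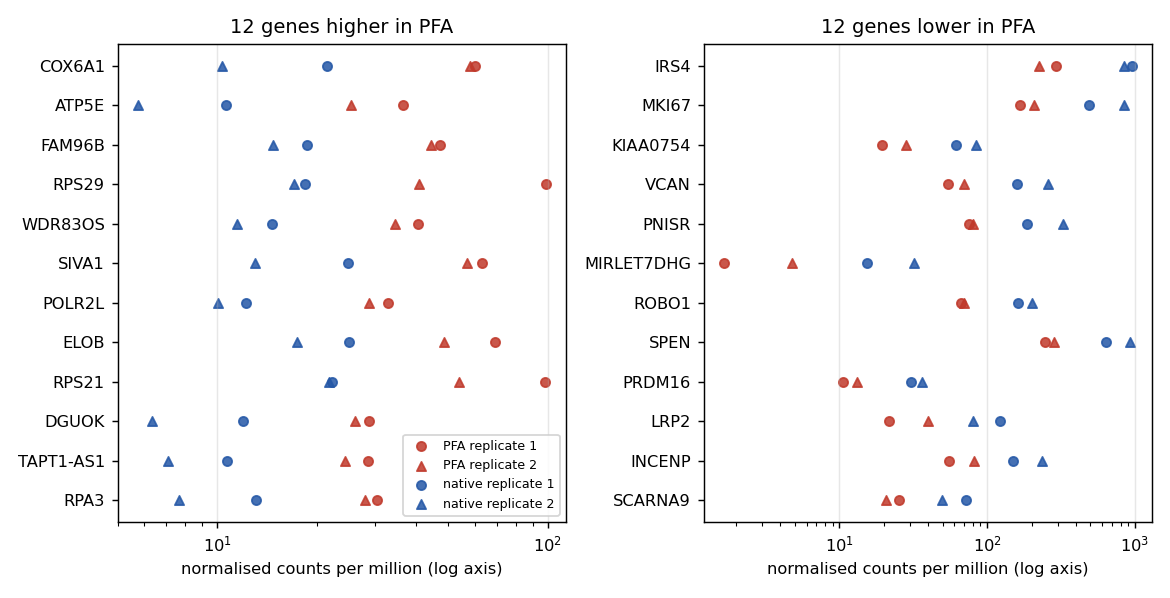
Normalised CPM (log axis) of the 12 genes with the smallest p in each direction, left higher and right lower in PFA. Red points are PFA libraries and blue points native libraries, circles replicate 1 and triangles replicate 2. In all 24 genes, picked by p in this comparison, the red and blue points are separate. Examples are COX6A1 (58.1 and 60.2 against 10.3 and 21.5) and MKI67 (168 and 206 against 489 and 837).

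A few rows hold a large part of each library, and the plot of shares shows them. MIR6087, a row of 49 bases (chromosome X, 108297772 to 108297820), made up 6.59% and 6.32% of the PFA libraries (95% Wilson intervals from 6.57 to 6.61 and from 6.29 to 6.35). Despite its symbol, the row is not among the genes with the RefSeq biotype miRNA described below, and the origin of its reads was not tested. Its share of the native libraries was 1.67% and 1.64% (intervals from 1.66 to 1.67 and from 1.63 to 1.65). In CPM this was 71370 and 53950 against 14810 and 14480, a log2 difference of 2.097 (SE 0.59, edgeR adjusted p 0.313, DESeq2 adjusted p 9.23e-09). In the fractions its share was 4.42% and 5.25% in nuclear and 13.6% and 16.2% in cytosolic RNA, so PFA lay between the fractions and native below them. The preparations did not overlap, and each pair of replicates was closer together than the preparations were. Reads carry no molecular identifiers, so intervals cover counting error only.

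RN7SL3, a copy of the RNA of the signal recognition particle that guides ribosomes to the endoplasmic reticulum (chromosome 14, 50320334 to 50320632), had 1424 and 762 CPM in PFA and 221 and 85.02 in native. Its log2 difference of 2.83 (SE 0.49, edgeR adjusted p 0.257, DESeq2 adjusted p 9.23e-09) had an unadjusted edgeR p of 5.10e-05. Near-identical copies of this RNA exist in the genome, so the count may include reads of other copies. RPPH1, the RNA of ribonuclease P, had 15480 and 8360 in PFA against 10910 and 5017 in native and overlapped between preparations, as did RMRP, the RNA of the related mitochondrial RNA processing ribonuclease, with 7263 and 6158 against 7472 and 3811.

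The mitochondrial ribosomal RNAs differed inside a preparation. RNR1, the small one, had 13.9% of counts in PFA replicate 1 and 5.37% in PFA replicate 2, beside 5.32% and 4.97% in native. RNR2, the large one, had 6.75% and 1.76% in PFA and 1.49% and 3.20% in native. PFA replicate 1 alone was high for both, and PFA replicate 2 lay at the native level. MALAT1, the nuclear speckle RNA (chromosome 11, 65265209 to 65273983), had 595 and 3079 CPM in PFA and 5456 and 12250 in native, a log2 difference of -2.27 (SE 0.66, edgeR adjusted p 0.313). Both PFA libraries were below both native ones for MALAT1, and the PFA replicates were further apart from each other than the native replicates were.

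**Figure D2:**
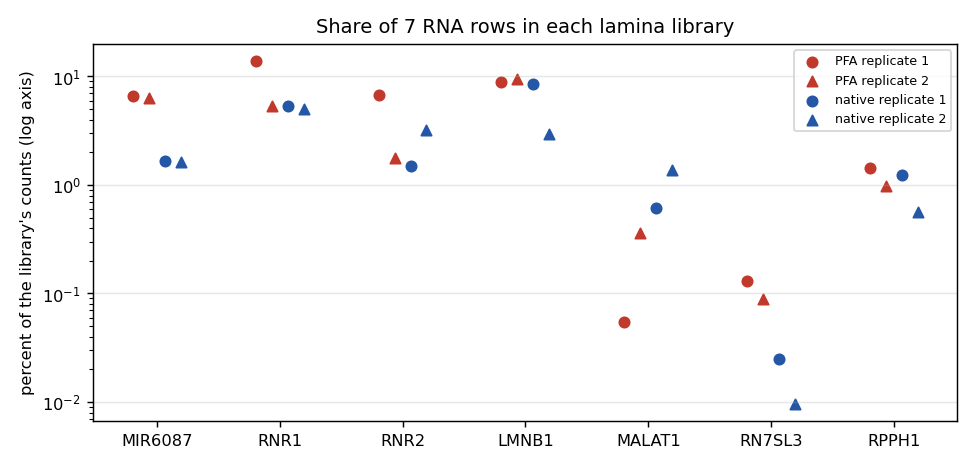
Percent of a library's counts (log axis) for 7 rows in the 4 lamina libraries, with red for PFA, blue for native, circles for replicate 1 and triangles for replicate 2. MIR6087 and RN7SL3 are higher and MALAT1 lower in both PFA libraries, while RNR1 and RNR2 are high in PFA replicate 1 (13.9% and 6.75%) and not in PFA replicate 2 (5.37% and 1.76%).

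The shift toward short messenger RNAs was followed through gene groups. Among 78 tested subunits of oxidative phosphorylation, which make up the respiratory chain and ATP synthase, 40 were higher and 0 lower at an unadjusted edgeR p under 0.05, beside 5.44% and 5.60% of all genes. Their median log2 difference was 0.83 against 0.06 for all genes. In the 4 pairs of a PFA and a native library the median ran from 0.01 to 1.64, lowest for PFA replicate 2 against native replicate 1. DESeq2 called 12 of the 78 higher and 0 lower, beside 0.442% and 0.909% of all genes. The 78 genes had a median exonic length of 974.5 bases and a median cytosolic minus nuclear log2 difference of 1.63. Among all 342 genes of 300 to under 1000 bases called higher in the cytosolic fraction, 43.0% were higher in PFA at an unadjusted p under 0.05. The median log2 difference of those 342 genes was 0.76. Complex IV, which passes electrons to oxygen, had the highest median log2 difference among the 5 complexes, 1.52. At an unadjusted p under 0.05, 10 of its 11 subunits were higher. Its median exonic length, 590 bases, was also the shortest of the 5, and the part of length was not tested.

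COX6C, a small subunit of complex IV, had 28.6 and 12.5 CPM in PFA against 6.86 and 4.42 in native. COX8A had 86.1 and 49.7 against 28.6 and 16.2. COX4I1, the regulatory subunit, had 151 and 92.3 against 61.6 and 31.1. In these complex IV genes the groups were separate, but PFA replicate 1 was above PFA replicate 2 and native replicate 1 above native replicate 2, an order that COX6A1 shared. The median log2 differences of complexes I, II, III and V were 0.76, 0.34, 0.80 and 0.90. Their median exonic lengths were 940.5, 2184, 1335 and 1282 bases.

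Of 85 proteins of the cytosolic ribosome, 33 were higher (38.8%) and 1 was lower (1.18%) at an unadjusted p under 0.05. The shares of all genes were 5.44% and 5.60%. Their median log2 difference was 0.57, with pair medians of 0.10 to 1.08. These genes had a median exonic length of 923 bases and a median cytosolic minus nuclear difference of 1.73. The 342 cytosolic genes of 300 to under 1000 bases had 43.0% higher and a median of 0.76. Of the 85, DESeq2 called 13 higher and 1 lower, beside 0.442% and 0.909% of all genes. RPL39 had 44.4 and 17.3 CPM in PFA against 9.36 and 9.43 in native, and RPS19, a gene mutated in Diamond-Blackfan anaemia, had 375 and 239 against 135 and 101. RPL36A was the member lower in PFA, with 5.73 and 17.3 against 30.5 and 36.2, and its exons overlap a readthrough gene, RPL36A-HNRNPH2. RPS24 had 230.2 and 135 against 253 and 313, so members differed in direction.

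Mitochondrial ribosomal proteins, which are made in the cytosol and imported, had a median of 0.65, with 23 of 78 higher and 1 lower at an unadjusted p under 0.05. That is 29.5% and 1.28%, beside 5.44% and 5.60% of all genes. Their median exonic length was 1349 bases and their median cytosolic minus nuclear difference 1.23. Among 881 genes of 1000 to under 2000 bases called higher in the cytosolic fraction, 26.1% were higher, with a median of 0.56. MRPS24 had 51.9 and 32.4 CPM in PFA against 18.3 and 7.66 in native. MRPS25 had 56.9 and 60.7 against 90.8 and 108 and was the lower member, and its exons overlap NR2C2 on the other strand. In the pair of PFA replicate 2 with native replicate 1 the median of this list was -0.18, so the 4 pairs do not share a sign.

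Proteasome subunits, the parts of the main protease for ubiquitin-tagged proteins, had 9 of 45 higher and 1 lower, a median of 0.50 and pair medians of -0.28 to 1.08. Without PFA replicate 1 the median was -0.07. PSMB3 had 74.5 and 58.1 CPM in PFA against 32.6 and 18.9 in native. PSMB6 had 85.4 and 61.1 against 37.5 and 14.2. Both are beta subunits of the catalytic core, and in both the groups were separate.

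Actins and tubulins, the building blocks of the cytoskeleton, had a median of 0.59, and their pair medians were all positive, from 0.40 to 0.53. At an unadjusted p under 0.05, 5 of 14 were higher (35.7%) and 0 lower, beside 5.44% and 5.60% of all genes. In 11 of 14 (78.6%) both PFA libraries were above both native ones, beside 19.9% of all genes. TUBA1B, an alpha tubulin, had 367.7 and 328 CPM in PFA against 187 and 144 in native. TUBB4A, a beta tubulin, had 50.8 and 33.8 against 22.8 and 25.8. ACTB, by contrast, had 1244 and 748 against 1144 and 980, and ACTG1 had 1091 and 995 against 1061 and 1261, so the higher members were tubulins.

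Oxidative stress response genes had a median of 0.40 and pair medians of 0.12 to 0.72. At an unadjusted p under 0.05, 7 of 27 were higher (25.9%) and 0 lower, beside 5.44% and 5.60% of all genes. GPX1, a glutathione peroxidase that removes hydrogen peroxide, had 81.7 and 41.2 CPM in PFA against 32.6 and 13.6 in native. SRXN1, which repairs oxidised peroxiredoxins, had 77.8 and 49.7 against 38.4 and 20.6. TKT and FTH1 in the same list had log2 differences of -0.26 and -0.24.

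Genes of DNA replication and of mitosis differed in direction. Among 38 replication genes 7 were higher (18.4%) and 1 was lower (2.63%) at an unadjusted p under 0.05, with a median of 0.21. The shares of all genes were 5.44% and 5.60%. RPA2, a subunit of the single-strand binding protein, had 81.5 and 58.1 CPM in PFA against 40.0 and 28.1 in native, while RFC1, the large subunit of the clamp loader, had 117 and 96.4 against 164 and 208. Among 37 mitosis genes 0 were higher and 13 lower (35.1%), and DESeq2 called 6 lower and 0 higher, beside 0.909% and 0.442% of all genes. Their median was -0.39, and it was negative in all 4 pairs, from -0.62 to -0.19. In 21 of the 37 both PFA libraries lay below both native ones, beside 18.7% of all genes.

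TOP2A, the topoisomerase that untangles chromosomes, had 242 and 296 CPM in PFA against 449.9 and 939.6 in native. CENPF, a kinetochore protein, had 64.7 and 81.7 against 188 and 188. PRC1, which bundles the microtubules of the spindle midzone, had 255 and 249 against 369.8 and 637. BUB3, a checkpoint protein, had 96.1 and 106 against 83.4 and 94.9 and was among the 6 members with a positive difference.

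Genes of glycolysis and the response to low oxygen also lay lower in PFA, with a median of -0.47 (pairs -0.77 to -0.22). At an unadjusted p under 0.05, 0 of 29 were higher and 8 lower (27.6%), beside 5.44% and 5.60% of all genes. NDRG1, a gene induced by low oxygen, had 100.5 and 87.9 CPM in PFA and 142 and 604 in native. SLC2A1, a glucose transporter, had 38.6 and 23.5 against 61.4 and 97.7. VEGFA, the vascular growth factor, had 35.7 and 37.2 against 39.6 and 91.2. PDK1, which restrains pyruvate entry into mitochondria, had 32.7 and 30.2 against 45.5 and 86.5. In these 4 genes native replicate 2 was the highest library, and the glycolytic enzymes GAPDH (1021 and 557 against 651 and 783), ENO1 and TPI1 overlapped between preparations.

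Histone genes went both ways. Among 46 replication-dependent histones, whose messages mostly end in a stem-loop and lack a poly(A) tail, 5 were higher and 9 lower at an unadjusted p under 0.05. This was 10.9% and 19.6% of these histones, beside 5.44% and 5.60% of all genes. Members were taken by symbol, and whether each message has a tail was not tested. The median of this list was -0.16, but the pair medians ran from -0.85 to 0.66, and the median was 0.125 without PFA replicate 2 and 0.33 without native replicate 1. The linker histone HIST1H1E had 694 and 376 CPM in PFA against 1540 and 1179 in native, and HIST1H1C had 585 and 295 against 1285 and 919. HIST2H2BE, a core H2B gene, had 136 and 107 against 374 and 382. The core histones HIST1H4D (143 and 89.8 against 71.2 and 19.4) and HIST1H3A (39.4 and 24.3 against 19.8 and 8.69) were higher in PFA. DESeq2 called 5 histones lower and 0 higher, beside 0.909% and 0.442% of all genes. Histone genes of 1 type are near-identical, so reads may be shared among them. Among 10 replacement histones, which are mostly polyadenylated, H2AFZ had 133 and 102 against 61.5 and 49.4 and was the member at an unadjusted p under 0.05.

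Heat shock genes had 2 of 19 higher and 5 lower at an unadjusted p under 0.05, or 10.5% and 26.3%, beside 5.44% and 5.60% of all genes. Their pair medians were 0.37 and 0.30 with PFA replicate 1 and -0.41 and -0.41 with PFA replicate 2, so the fitted median of 0.11 describes neither library. HSP90AA1, the inducible cytosolic chaperone HSP90, had 727 and 434 CPM in PFA against 1097 and 1332 in native. HSPA1A had 135 and 75.04 against 298 and 284, and HSPA1B had 123.1 and 88.3 against 316 and 286. HSPA1A and HSPA1B are near-identical copies annotated on 5 sequences each, so their counts cannot be assigned to either. HSPB1, a small heat shock protein, had 31.4 and 54.1 against 19.8 and 27.6. In the list of 35 genes for chaperones and the translocon of the endoplasmic reticulum, 4 were higher and 4 lower at an unadjusted p under 0.05. That is 11.4% in each direction, beside 5.44% and 5.60% of all genes. HSP90B1 had 334 and 193 against 609 and 660. DAD1, an oligosaccharyltransferase subunit, had 54.9 and 20.2 against 17.9 and 7.07.

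Immediate early genes had 1 of 34 higher (2.94%) and 2 lower (5.88%) at an unadjusted p under 0.05, beside 5.44% and 5.60% of all genes. Their median was -0.18, with pair medians of -0.77 to 0.50, and it was 0.11 without PFA replicate 1 and 0.27 without native replicate 2. MYC had 57.8 and 30.9 CPM in PFA against 115 and 108 in native, JUN had 536 and 551 against 739 and 1161, and KLF10 had 88.7 and 126 against 54.6 and 76.2. ARRDC3, an alpha-arrestin, had 186 and 207 against 121 and 125, a log2 difference of 0.68 (SE 0.29). ANKRD1, a target of the YAP pathway, had 47.7 and 33.5 against 43.7 and 18.3 and overlapped.

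Genes of the nuclear envelope included members in both directions. Of 25 genes of the lamina and inner nuclear membrane, 2 were higher and 3 lower at an unadjusted p under 0.05, with a median of -0.13 and pair medians of -0.29 to -0.04. Both PFA libraries lay below both native ones in 9 of the 25 and above in 5, beside 18.7% and 19.9% of all genes. EMD (emerin) had 101 and 81.7 CPM in PFA against 48.8 and 56.4 in native. BANF1, which links chromatin to that membrane, had 56.9 and 28.3 against 27.96 and 19.6. SYNE2, the giant nesprin-2 of 22269 exonic bases, had 57.8 and 152 against 241.1 and 248. Both shorter genes were thus higher in PFA and the giant one lower.

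LMNB2 had 250.0 and 269 CPM in PFA against 282 and 377 in native, and LMNA had 51.9 and 64.0 against 53.8 and 72.6, which overlapped. LMNB1 was at 96240 and 81000 against 76510 and 26170, with an edgeR adjusted p of 0.647. Of 31 nuclear pore genes, AAAS (59.3 and 41.2 against 35.0 and 29.9) was higher and TPR, the nuclear basket protein (143 and 161 against 233 and 298), was lower at an unadjusted p under 0.05. That is 3.23% in each direction, under the 5.44% and 5.60% of all genes.

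Translation factors had 6 of 67 higher (8.96%) and 2 lower (2.99%) at an unadjusted p under 0.05, beside 5.44% and 5.60% of all genes. EIF3K, of 893 exonic bases, had 86.3 and 77.2 CPM in PFA against 51.6 and 30.9 in native. EIF3A, a subunit of the same initiation factor with 5305 exonic bases, had 259 and 226 against 426 and 541. EEF1A1, the elongation factor that brings transfer RNA to the ribosome, had 273 and 245 against 252 and 292 and overlapped. Among 18 SR proteins and CLK kinases, which set splicing, 0 were higher and 3 lower (16.7%), beside the same shares of all genes. SRSF5 had 84.8 and 84.6 against 134 and 194.

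**Figure D3:**
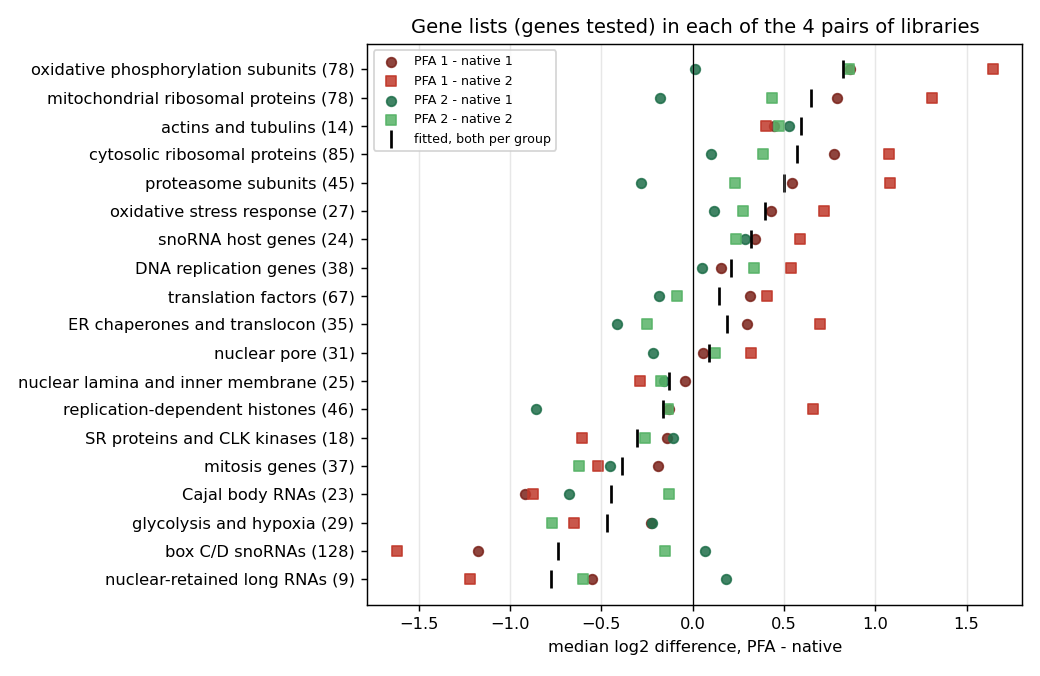
Median log2 difference, PFA minus native, of 19 gene lists in each of the 4 pairs of libraries, with the number of genes tested in brackets. Red is PFA replicate 1 and green PFA replicate 2, circles are pairs with native replicate 1 and squares with native replicate 2, and black ticks are the fitted medians. Oxidative phosphorylation spans 0.01 to 1.64, actins and tubulins 0.40 to 0.53, and mitosis genes -0.62 to -0.19.

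Small nuclear and nucleolar RNAs guide the chemical modification of other RNAs or take part in splicing. Among 128 box C/D snoRNAs, which guide methylation, 5 were higher (3.91%) and 13 lower (10.2%) at an unadjusted p under 0.05, with a median of -0.74. The shares of all genes were 5.44% and 5.60%. The pair medians ran from -1.62 to 0.07, and both pairs of PFA replicate 1 were below both pairs of PFA replicate 2. Among the members with at least 10 counts in each of the 8 libraries the median was 0.10. SNORD76 had 0.554 and 4.05 CPM in PFA against 9.67 and 10.2 in native, whereas SNORD17, one of the longest of its class, had 128 and 96.0 against 63.5 and 26.8. Of 107 box H/ACA snoRNAs, which guide pseudouridylation, 1 was higher (0.935%) and 5 lower (4.67%), beside 5.44% and 5.60% of all genes. Of 23 Cajal body RNAs 6 were lower (26.1%) and 0 higher, beside the same shares of all genes. Their median of -0.45 was negative in all 4 pairs and 0.10 in the fit without native replicate 1. SCARNA9 had 25.5 and 20.6 against 71.9 and 49.7.

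The host genes from whose introns snoRNAs are cut had a positive median of 0.32, with 7 of 24 higher and 0 lower at an unadjusted p under 0.05. The higher ones were 29.2%, beside 5.44% higher and 5.60% lower of all genes. SNHG15 had 129 and 81.7 CPM in PFA against 57.9 and 43.3 in native, and ZFAS1 had 44.4 and 38.99 against 23.5 and 14.6. Among 9 nuclear-retained long RNAs 2 were lower (22.2%) and 0 higher, with TUG1 at 158 and 166 against 231 and 367. NEAT1, the paraspeckle RNA, had 106 and 745 against 749.8 and 1130, and GAS5 had 78.4 and 86.1 against 75.7 and 76.5.

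Intergenic long RNAs with LINC symbols (3 of 207 higher, 10 lower) and antisense long RNAs (10 of 571 higher, 15 lower) differed between the PFA replicates. These counts are 1.45% and 4.83%, and 1.75% and 2.63%, all under the 5.44% and 5.60% of all genes. Against the native libraries the LINC RNAs had medians of -0.45 and -0.50 with PFA replicate 1 and 0.34 and 0.27 with PFA replicate 2, and the antisense RNAs -0.31 and -0.35 and then 0.21 and 0.21. The fitted medians, -0.03 and 0.00287, describe neither library. LINC00342 had 2.96 and 9.56 CPM in PFA against 18.1 and 16.1 in native, and LINC02381 had 38.1 and 30.2 against 18.5 and 14.3. For zinc finger genes, a large family of DNA-binding proteins, the median was 0.06 with 12 of 464 higher (2.59%) and 22 lower (4.74%), also under those shares. ZNF514 had 33.8 and 44.1 against 86.8 and 111.

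Rows of microRNA precursors were counted too. In a total RNA library such a row can collect fragments of the long primary transcript in the nucleus, since mature microRNAs are too short for this kind of library. Some rows lie in exons of other RNAs, such as MIR612 in NEAT1, MIR3652 in HSP90B1 and MIR1248 in SNORA81. Reads were counted for every gene they overlap, so such rows also collect reads of those RNAs. Of 130 tested genes with the RefSeq biotype miRNA, 2 were higher and 11 lower at an unadjusted p under 0.05, or 1.54% and 8.46%, beside 5.44% and 5.60% of all genes. Both PFA libraries lay below both native ones in 28.5% and above in 7.69%, beside 18.7% and 19.9% of all genes. The pair medians were -0.63 and -0.84 with PFA replicate 1 and -0.07 and -0.13 with PFA replicate 2. This class was examined after values had been seen, and a row with few counts in PFA was tested only where native or reference libraries carried it, so these values describe the tested rows and support no difference. The mature forms encoded by the rows below are shown to make clear which microRNAs these primary transcripts give rise to, from RefSeq on GRCh38.p14, written 5′ to 3′ with the seed, bases 2 to 8, in capitals. The let-7 forms share the seed GAGGUAG, miR-25 and miR-92a share AUUGCAC, and miR-19a and miR-19b share GUGCAAA.
hsa-let-7a-5p: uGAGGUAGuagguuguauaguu
hsa-let-7f-5p: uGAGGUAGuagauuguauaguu
hsa-let-7d-5p: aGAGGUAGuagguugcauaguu
hsa-miR-25-3p: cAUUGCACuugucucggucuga
hsa-miR-92a-3p: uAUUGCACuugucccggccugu
hsa-miR-19a-3p: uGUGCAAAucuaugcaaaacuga
hsa-miR-19b-3p: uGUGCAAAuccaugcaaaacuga
hsa-miR-18a-5p: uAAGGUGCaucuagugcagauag

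The let-7 cluster of chromosome 9 has the rows MIRLET7A1 (96938239 to 96938318), MIRLET7F1 (96938629 to 96938715) and MIRLET7D (96941116 to 96941202). Together they had 0 and 3 counts in PFA and 10 and 28 in native. MIRLET7F1 had 0 and 0 against 4 and 17. These clusters were chosen after their values were seen. The gene MIRLET7DHG is annotated on the minus strand from 96938852 to 96966848, a span that covers the MIRLET7D row. It had 1.66 and 4.78 CPM in PFA and 15.5 and 31.8 in native, a log2 difference of -2.999 (SE 0.58, edgeR adjusted p 0.257).

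The 6 rows of the miR-17-92 cluster of chromosome 13, known for its part in growth and in cancers, had 1 and 4 counts in PFA and 42 and 48 in native. Relative to library size that is a native to PFA ratio of 10.1 (exact 95% interval 4.18 to 31.9, counting error only). MIR18A (92003005 to 92003075) had 0 and 0 against 18 and 10. The host transcript MIR17HG had 1.85 and 25.01 CPM in PFA and 42.6 and 82.2 in native. The 3 rows of the miR-106b-25 cluster on chromosome 7 had 0 and 1 counts in PFA and 19 and 11 in native, a ratio of 16.9 (2.80 to 688). Because the clusters were chosen after their values were seen, neither interval supports a difference between the preparations. Summed counts of the let-7, miR-17-92 and miR-106b-25 rows were 20, 52 and 17 in nuclear replicate 1 and 27, 114 and 25 in nuclear replicate 2, against 1, 1 and 1 in cytosolic replicate 1 and 0, 6 and 1 in cytosolic replicate 2.

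Exonic length ordered the differences across all genes. The median log2 difference was -0.37 for 387 genes under 300 bases, 0.39 for 992 genes of 300 to under 1000 bases and 0.34 for 2872 genes of 1000 to under 2000. It was 0.18 for 6159 genes of 2000 to under 4000, -0.12 for 4810 genes of 4000 to under 8000 and -0.43 for 1284 genes of 8000 or more. From 300 bases upward the fitted medians were lower with each longer class, and the genes under 300 bases, 369 of them with 1 exon block, stood apart. In the pair of PFA replicate 1 with native replicate 1, genes of 300 to under 1000 bases had 0.25 and those of 1000 to under 2000 had 0.29. Of the genes of 8000 bases or more, 3 were higher (0.234%) and 328 lower (25.5%) at an unadjusted p under 0.05, beside 5.44% and 5.60% of all genes. DESeq2 called 34 higher and 5 lower among genes of 300 to under 1000 bases, and 0 higher and 79 lower among those of 8000 or more. Of all genes DESeq2 called 0.442% higher and 0.909% lower. The median exonic length of its higher calls was 958 bases and of its lower calls 8274.

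Spearman's rho between the difference and exonic length across the 16504 genes, which are not independent replicates, was -0.33 for the fitted difference. It was -0.26, -0.24, -0.21 and -0.27 in the pairs PFA 1 with native 1, PFA 1 with native 2, PFA 2 with native 1 and PFA 2 with native 2. The relation was steeper in well-covered genes, with rho of 0.03, -0.30, -0.51 and -0.57 across 4 equal classes of genes from the lowest to the highest expression. Replicates differed along the same axis, with rho of -0.44 for PFA replicate 1 minus replicate 2 and -0.29 for native replicate 1 minus replicate 2 in the highest class. In that class the median of genes of 8000 or more bases was below that of genes of 300 to under 1000 bases in each of the 4 pairs, by the values -0.64 and 0.61, -0.80 and 1.11, -0.33 and -0.05, and -0.50 and 0.41. RNA fragment size and integrity were not measured in these files, and their part in the result was not tested.

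**Figure D4:**
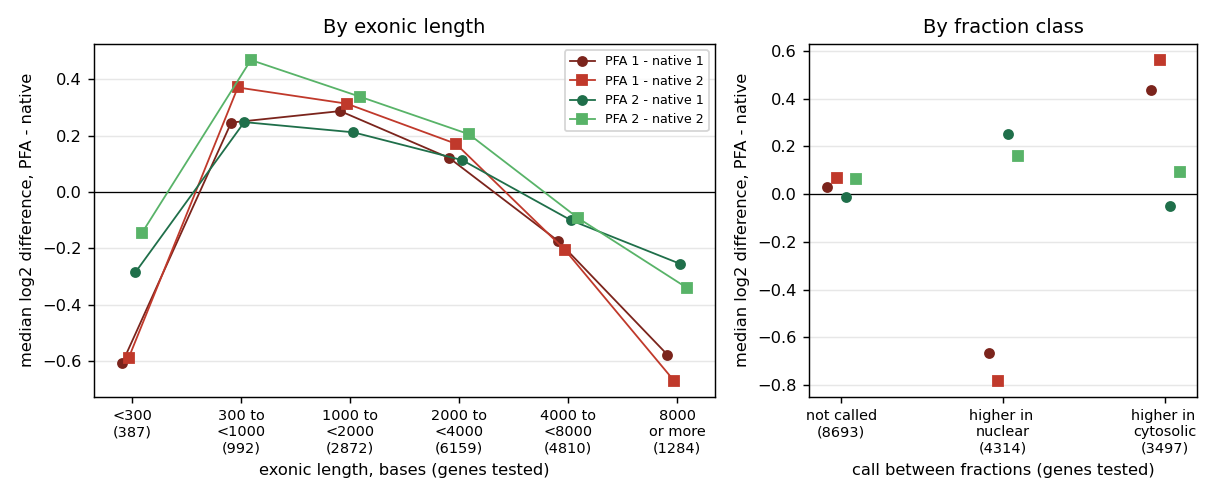
Median log2 difference, PFA minus native, in each pair of libraries by exonic length class (left) and by the call between nuclear and cytosolic fraction (right), with genes tested in brackets. Red is PFA replicate 1 and green PFA replicate 2, circles are pairs with native replicate 1 and squares with native replicate 2. Genes of 8000 or more bases are below 0 in all 4 pairs, while genes higher in the nuclear fraction are below 0 with PFA replicate 1 (-0.67 and -0.78) and above 0 with PFA replicate 2 (0.25 and 0.16).

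The PFA replicates went opposite ways with respect to nuclear and cytosolic RNA. The fractions share no library with the lamina preparations, and between them 4314 genes were higher in nuclear RNA (26.1%) and 3497 in cytosolic RNA (21.2%) at an edgeR adjusted p under 0.05. In PFA replicate 1 the nuclear genes had medians of -0.67 and -0.78 against the native libraries and the cytosolic genes 0.44 and 0.56. In PFA replicate 2 the nuclear genes had 0.25 and 0.16 and the cytosolic genes -0.05 and 0.09. Pearson's r across genes with the cytosolic minus nuclear difference was 0.61 and 0.55 for PFA replicate 1 minus the native libraries and -0.32 and -0.17 for PFA replicate 2. The pooled value, 0.23, therefore describes neither library, and without PFA replicate 1 it was -0.20. Log2 levels of PFA replicate 1 correlated across genes at 0.957 and 0.951 with the cytosolic libraries and 0.791 and 0.803 with the nuclear ones. For PFA replicate 2 the values were 0.894 and 0.892, and 0.875 and 0.894. Native replicate 1 had 0.928 and 0.924, and 0.888 and 0.888. Native replicate 2 had 0.9025 and 0.906, and 0.8935 and 0.905. Where in the cell the RNA lay was not tested.

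KCNQ1OT1, a nuclear antisense RNA of an imprinted region, shows this in 1 gene, with 10.4 CPM in PFA replicate 1 and 282 in PFA replicate 2, beside 138 and 194 in native, 942 and 1194 in nuclear and 18.7 and 20.9 in cytosolic RNA. IL12RB2 and ACPT, also nuclear in these cells, had 0.554 and 21.0, and 0.924 and 28.7, in the PFA replicates. SEC61G, a translocon subunit that is cytosolic here, had 14.4 and 1.84 in PFA against 4.26 and 5.75 in native. CCDC58, SEC11C and FRG1 were likewise 5-fold or more higher in PFA replicate 1 than in replicate 2. By total counts, 3 counts equal 0.512 CPM in PFA replicate 1 and 1.29 in PFA replicate 2. The lower PFA values of IL12RB2, ACPT and SEC61G thus lie near the floor. Genes in this paragraph were named for their large replicate gaps. For genes that differ between the fractions, the nuclear share of a PFA library and the fixation cannot be told apart.

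Among genes not called between the fractions the longest class lay below the short classes in every pair. Of these 8693 genes, 382 of 300 to under 1000 bases had pair medians of 0.20 to 0.37, 1319 of 1000 to under 2000 had 0.21 to 0.39, and 798 of 8000 or more bases had -0.57 to -0.28. The shorter of the first 2 classes was the lower one in both pairs of PFA replicate 1 (0.20 and 0.295 against 0.31 and 0.39). Among the cytosolic genes, 342 of 300 to under 1000 bases had a fitted median of 0.76 and 94 of 8000 or more had -0.39. Among the nuclear genes, those of 300 to under 1000 bases had -0.89 and -1.12 with PFA replicate 1 but 0.55 and 0.40 with PFA replicate 2. Of the 309 genes called higher without PFA replicate 2, 252 were cytosolic and 4 nuclear, and of the 433 called lower 332 were nuclear and 3 cytosolic.

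The PFA replicates lay further apart than PFA and native libraries did in every pair except PFA replicate 1 with native replicate 2. The SD of the log2 difference across genes was 1.02 between the PFA replicates and 0.58 between the native replicates. In the pairs of a PFA and a native library it was 0.77 and 1.03 for PFA replicate 1 and 0.69 and 0.75 for PFA replicate 2. More than 2-fold apart were 25.3% of genes between the PFA replicates and 7.96% between the native replicates, beside 16.3%, 30.3%, 12.5% and 16.3% in the same 4 pairs. In the highest of the 4 classes of expression the SD was 0.61 between the PFA replicates, 0.45 between the native replicates and 0.605, 0.86, 0.42 and 0.58 in the pairs. PFA replicate 2 was also the shallowest library. When all libraries were thinned to its depth the SD between the PFA replicates was 0.86.

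Some genes followed the replicate number rather than the preparation. KRT17, a keratin, had 0.370 and 20.6 CPM in PFA and 2.29 and 56.4 in native, with 0.934 and 19.9 in nuclear and 2.41 and 73.4 in cytosolic RNA, so replicate 2 was higher in all 4 groups. In total 10 genes were over 2-fold higher in replicate 2 in all 4 groups and 4 genes over 2-fold higher in replicate 1. RNU11, the U11 RNA of the minor spliceosome, had 58.8 and 10.7 in PFA and 69.4 and 12.5 in native, while the fractions stayed between 40.2 and 47.6. LINC01715, whose exons overlap RNU11, had 62.5 and 13.2 against 71.3 and 15.9. VTRNA1-3, a vault RNA, had 97.2 and 31.6 against 39.1 and 3.98, and SCARNA16 had 282 and 35.3 against 138 and 37.7. For these small RNAs replicate 1 was the higher library in both preparations. SCARA5 and DUOX1 were higher in replicate 2 of both preparations, and TRANK1, ZNF425 and CLCN4 were lowest in native replicate 2.

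**Figure D5:**
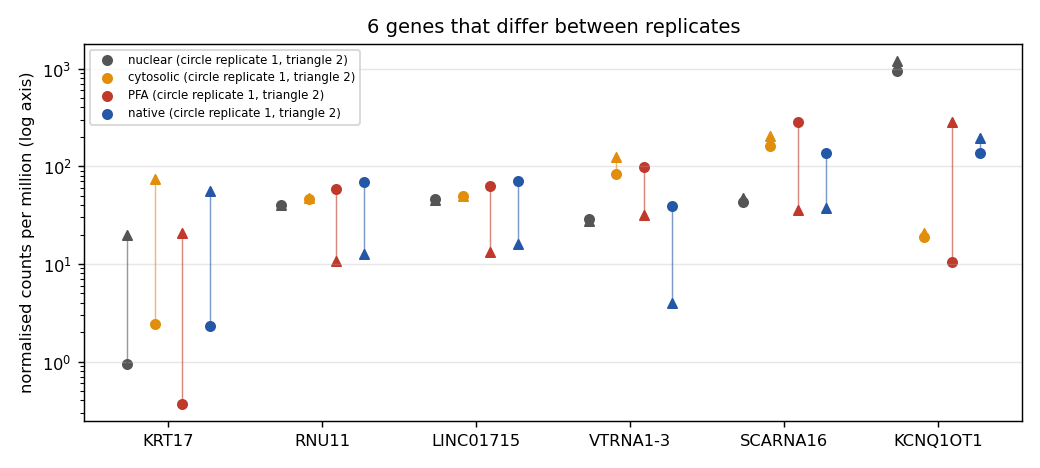
Normalised CPM (log axis) of 6 genes in all 8 libraries, grey for nuclear, orange for cytosolic, red for PFA and blue for native, with circles for replicate 1 and triangles for replicate 2 joined by a line. KRT17 is higher in replicate 2 of all 4 groups, RNU11 and LINC01715 are higher in replicate 1 of both lamina preparations, and KCNQ1OT1 differs between the PFA replicates (10.4 and 282).

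The series also holds lamina-associated domains, stretches of chromosome in contact with the lamina, mapped in HCT116 colon carcinoma cells in G1, S and G2. The 194 tested genes that lie inside a domain in all 3 stages had a median log2 difference of -0.11, with pair medians of -0.18 to -0.02. The 15695 genes outside any domain had a median of 0.06. At an unadjusted p under 0.05, 2 of the 194 were higher and 18 lower in PFA. These are 1.03% and 9.28%, beside 5.56% and 5.55% of the genes outside any domain. The median exonic length was 4348 bases for the 194 genes and 3113 outside any domain, and its part in the result was not tested. The domains come from another cell line.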

How the data were processed

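The deposited values are read counts per gene symbol, made by the authors with featureCounts 1.5.2 (Subread) on hg19 with the RefFlat annotation, ignoring strand and counting a read for every gene it overlaps, per the file headers. TopHat2 2.1.1 and Bowtie2 2.3.2 are named in the submitters' processing notes. Genes were filtered by group with filterByExpr and fitted with edgeR 4.0.16 (R 4.3.3; TMM, quasi-likelihood test, no block) in 1 fit of 8 libraries, with the contrast PFA minus native and Benjamini-Hochberg adjustment over 16504 genes. With 2 libraries against 2, an exact permutation test cannot give a p under 0.333. Log2 values per library used a prior count of 2, and shares have 95% Wilson intervals. DESeq2 1.42.0 was an alternative. Named genes were the 12 smallest p per direction (at least 300 exonic bases, 1 chromosome, 50 counts per library of the higher group), 16 fixed genes of which RN7SL1 was not analysed here, up to 2 per direction and list, and the 4 largest replicate gaps per direction; others were chosen after their values were seen. Members and lists were chosen with earlier results of these data known. Biotypes matched for 16131 genes. The fit was tested on simulated data. The deposited domain intervals (other values) are 1 consensus list per stage by the authors, with 378, 303 and 388 domains in G1, S and G2.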

Additional observations from a re-analysis of the deposited data

How the results depend on the processing

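The count of called genes, 0 with edgeR, became 272 with no filter and 223 with DESeq2. It ran from 0 to 742 when each library was left out in turn, and only leaving out PFA replicate 2 gave calls. The replicate block gave 0 calls, and 1084 higher and 1147 lower genes at an unadjusted p under 0.05. Deviations from the group means correlated across libraries of the same number at 0.32 between PFA and native, 0.28 between the fractions, 0.16 and 0.09 between native and the fractions, and 0.00012 and -0.07 between PFA and the fractions, and the labels do not say that a number marks a pair. At an unadjusted p under 0.05, higher genes numbered 447 with total counts, 514 with only the 4 lamina libraries and 66 with a minimum change of 2-fold, which left 78 lower. Leaving out libraries gave 180 to 1852 higher and 315 to 2125 lower. Spearman's rho with exonic length was -0.15 with no filter, -0.50 with at least 10 counts in every library, -0.39 with genes of at least 300 bases on 1 chromosome, -0.38 with only the 4 lamina libraries, -0.40 after thinning, and -0.33 to -0.20 with libraries left out. The median of genes inside domains was -0.25 with total counts, 0.0 with no filter, -0.21 without rows above 1% of a library, and -0.27 to -0.039 with libraries left out. The SD between the PFA replicates was 0.70 with at least 10 counts in every library.

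Of the list medians, zinc finger genes moved to -0.058 with total counts, 0.0254 with no filter, 0.0245 with at least 10 counts in every library, 0.018 with only the 4 lamina libraries and -0.011 without rows above 1%. Actins and tubulins moved to 0.48, 0.53 and 0.53 with total counts, after thinning and without those rows, and box C/D snoRNAs to 0.10 with at least 10 counts in every library. With libraries left out, medians ran from -0.82 to 1.23 for spliceosomal small nuclear RNAs, -0.025 to 0.078 for zinc finger genes, -0.19 to 1.66 for metallothioneins, -0.46 to 0.41 for heat shock genes, -0.17 to 0.40 for translation factors and 0.48 to 0.59 for actins and tubulins. They ran from -2.03 to -0.15 for box C/D snoRNAs, -0.73 to 0.27 for LINC RNAs, -0.49 to 0.21 for antisense RNAs, -0.61 to 0.10 for Cajal body RNAs and -0.27 to -0.11 for lamina genes. They ran from 0.16 to 0.66 for oxidative stress genes, -0.78 to -0.14 for glycolysis and low-oxygen genes, 0.13 to 0.43 for replication genes and -0.43 to 0.00296 for SR proteins and CLK kinases.

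The log2 differences of several named genes changed sign when 1 lamina library was left out, and none of these genes was called with all 8 libraries after the filter, while KRT17 was called with no filter by edgeR. Without PFA replicate 2 edgeR called 5 of them, KCNQ1OT1, IL12RB2 and ACPT lower and SCARNA16 and SEC61G higher, with adjusted p of 6.77e-04, 0.00589, 0.0291, 0.0439 and 0.0479. Leaving out libraries gave ranges of -3.14 to 1.77 for ACPT, -0.52 to 0.23 for ACTB, -0.10 to 1.15 for ANKRD1, -1.41 to 1.595 for CCDC58, -0.39 to 1.93 for CLCN4, -3.59 to 1.74 for DUOX1, -0.18 to 0.029 for EEF1A1 and -2.37 to 0.21 for FRG1. They were -0.38 to 0.51 for GAPDH, -3.86 to 1.32 for IL12RB2, -3.996 to 0.75 for KCNQ1OT1, -6.22 to 2.04 for KRT17, -1.75 to 1.28 for LINC01715, -0.34 to 0.094 for LMNA, -0.16 to 0.81 for RMRP and -0.0084 to 1.72 for RNR1. They were -0.48 to 1.82 for RNR2, -1.97 to 1.51 for RNU11, -0.75 to 2.13 for SCARA5, -1.33 to 2.09 for SCARNA16, -1.63 to 1.12 for SEC11C, -1.44 to 1.54 for SEC61G and -0.69 to 1.73 for TRANK1. With all libraries, DUOX1 had -0.011 and IL12RB2 -0.17 with the replicate block, GAPDH -0.020 with total counts, and TRANK1 -0.072 with total counts, -0.0094 with at least 10 counts in every library and -0.019 without rows above 1%. The cause of these moves was not tested.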
